A study of Mus musculus with 6 samples.

Results

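The protein arginine methyltransferases were examined in germinal centre B cells made in culture, with and without inhibition of the kinase GSK3. The set holds 8 of the 23850 gene entries of the deposited tables, found by their symbols: the 7 enzyme genes Prmt1, Prmt2, Prmt3, Prmt5, Prmt6, Prmt7 and Carm1, and Wdr77, which encodes the obligate partner of the PRMT5 enzyme. All 8 were tested, along with every other entry whose 6-library mean reached 1 FPKM (10096 in all). FPKM, the unit of every level below, is fragments per kilobase of transcript scaled to sequencing depth, so levels can be set side by side between genes. The libraries came from wild-type C57BL/6J mice, 3 treated with CHIR99021, a small-molecule inhibitor of both GSK3 kinases, and 3 with its solvent DMSO. Both groups began as naive follicular B cells, kept 4 days on a CD40L feeder layer in 1 ng/ml IL-4. Treatment lasted 36 h, again over CD40L feeders but in 10 ng/ml IL-21, and the cells were purified, by a method the labels leave out, before RNA extraction. The labels give 3 uM for CHIR99021 and print the same figure beside DMSO. The series calls each group a biological triplicate and does not say whether the libraries came from separate animals, so p-values measure the spread between these libraries, which may be technical.

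Protein arginine methyltransferases move methyl groups from S-adenosylmethionine to the guanidino nitrogens of arginine. Type I enzymes (PRMT1, PRMT2, PRMT3, CARM1 and PRMT6) make asymmetric dimethylarginine, the type II enzyme PRMT5 makes symmetric dimethylarginine, and PRMT7 makes monomethylarginine only and is called type III. Their substrates include histone tails, spliceosomal Sm proteins, RNA-binding proteins with glycine and arginine rich stretches, and ribosomal proteins. In B cells PRMT1 and PRMT5 are both known to be needed for normal proliferation and for germinal centre responses.

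With CHIR99021, Prmt5 was 1.91-fold higher, and Prmt7 and Prmt1 also rose, by 1.47-fold and 1.27-fold. Carm1, Wdr77 and Prmt3 lay higher in every CHIR99021 library than in every DMSO library, by 1.41-fold, 1.40-fold and 1.27-fold, but did not pass the test as fitted without pairing on FPKM as deposited. They passed when libraries of the same replicate number were paired, and under upper-quartile or quantile scaling. Prmt2 and Prmt6 did not pass in either fit. Thus 3 of 8 genes rose and 0 fell, where 8.13% of all tested genes rose (821) and 13.3% fell (1343). With the replicate number as a block, 6 of 8 rose and 0 fell, against 18.4% and 24.4% of all tested genes. The median log2 change of the 8 genes was 0.41, beside -0.04 over all tested genes.

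The count rested on how the libraries were scaled and on single libraries. With upper-quartile or quantile scaling in place of FPKM as deposited, Prmt1, Prmt3, Prmt5, Prmt7, Carm1 and Wdr77 passed. Over all genes, upper-quartile scaling gave 1115 higher (11.0%) and 1174 lower (11.6%), and quantile scaling 1232 higher (12.2%) and 1174 lower (11.6%). Only Prmt5 passed without DMSO replicate 1, CHIR99021 replicate 2 or CHIR99021 replicate 3.

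**Figure D1:**
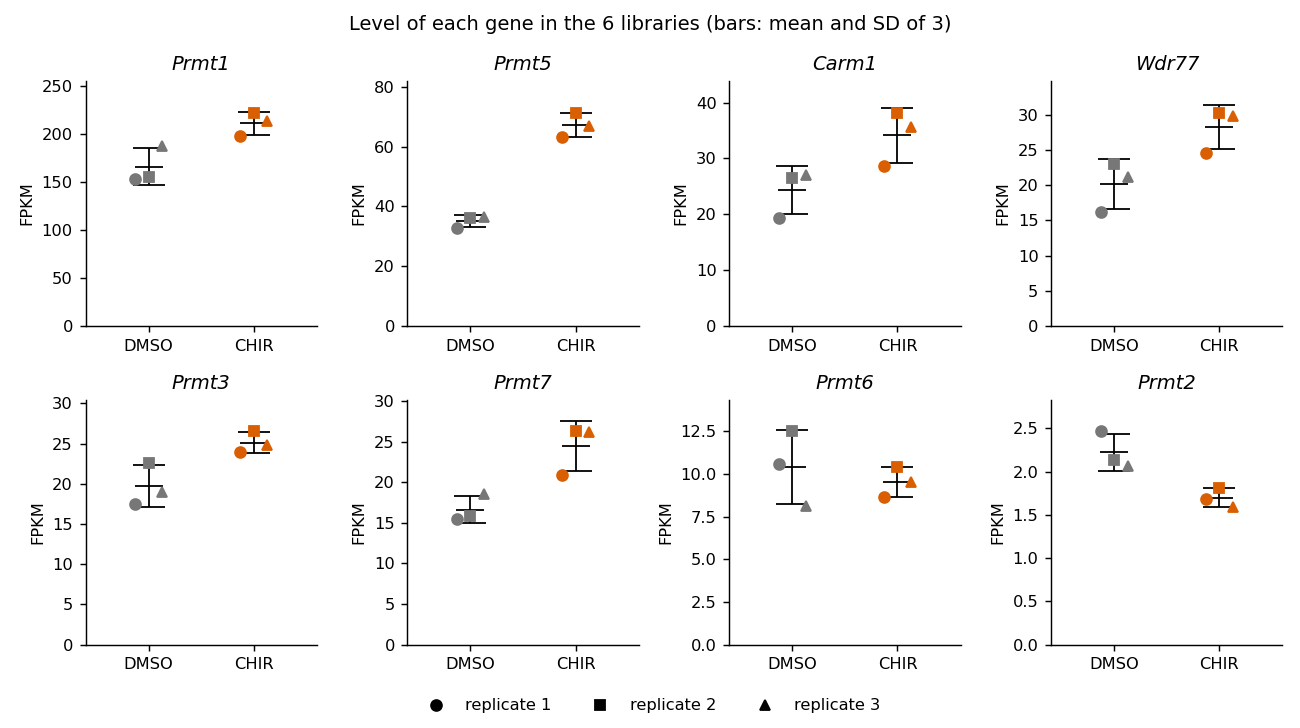
FPKM (vertical axes, from 0) of the 8 genes in each DMSO and CHIR99021 (CHIR) library, with symbols for the replicate number and bars for the mean and SD of 3 libraries. The groups are apart for every gene but Prmt6, CHIR99021 lies below DMSO only for Prmt2, and Prmt5 has the widest gap, with 32.95 to 36.6 FPKM in DMSO and 63.4 to 71.3 in CHIR99021.

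The B cell markers Cd79a, Cd79b, Ms4a1 and Pax5 were present in all libraries. Their summed level was 2048 to 2927 FPKM in DMSO and 952.9 to 1231 in CHIR99021. Of these, 4 of 4 fell, beside 13.3% of all tested genes. They also fell under upper-quartile or quantile scaling, beside 11.6% of all tested genes in either. Of the germinal centre markers Bcl6, Fas and Mki67, with a summed level of 72.1 to 117 FPKM in DMSO and 66.5 to 89.6 in CHIR99021, only Fas fell, and not under those scalings. Of 3 plasma cell markers Irf4 and Prdm1 rose, beside 8.13% of all tested genes, and Sdc1 did not pass. Their summed level was 40.03 to 43.3 FPKM in DMSO and 97.2 to 110.0 in CHIR99021. Bcl6 did not pass without the block (adjusted p = 0.160) and was lower with it (0.00307), as were 24.4% of all tested genes. The proliferation markers Mki67, Top2a and Ccnb1 did not pass the test without the block. With it Top2a was lower (adjusted p = 0.0250), as were 24.4% of all tested genes. The summed level of these proliferation markers was 305.8 to 372.4 FPKM in DMSO and 277.6 to 309.9 in CHIR99021. The 4 T cell markers lay under 1 FPKM in every library, with Cd3e at 0 throughout, and so did 3 of 4 myeloid markers, with Cd14 at 0. The other myeloid marker, S100a8, was listed at 0 in all DMSO libraries and in CHIR99021 replicate 3, and had 1.68 and 2.08 FPKM in CHIR99021 replicates 1 and 2. Collagen genes, which mark fibroblasts such as feeder cells, were present (Col1a1, Col1a2 and Col3a1). None of these 3 passed without the block. With it Col1a2 and Col3a1 were lower (adjusted p = 0.00479 and 0.00629), beside 24.4% of all tested genes, and Col1a1 did not pass (0.0765). Their sum was 275.7, 93.4 and 50.6 FPKM in DMSO replicates 1, 2 and 3, and 216.1, 82.1 and 44.5 in CHIR99021 replicates 1, 2 and 3. It was thus highest in replicate 1 of both groups, which are also the libraries where 6 of the 8 genes (all but Prmt2 and Prmt6) were lowest. What the changed B cell and plasma cell markers and the feeder cell RNA contributed to the levels below was not tested. In such bulk RNA, fewer cells of a type and less RNA per cell cannot be told apart.

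Prmt1 was by far the most abundant enzyme transcript. In DMSO it had 165.6 ± 19.2 FPKM (SD, n = 3, as throughout), which put its mean over all libraries above that of 96.4% of tested genes. Prmt5 followed at 35.2 ± 1.98, and its libraries overlapped neither those of Prmt1 nor those of Carm1 at 24.3 ± 4.27. Next came Wdr77 at 20.1 ± 3.56, Prmt3 at 19.7 ± 2.65 and Prmt7 at 16.6 ± 1.68, and from Carm1 to Prmt7 each gene overlapped its neighbour in the order. Prmt6 at 10.4 ± 2.19 and Prmt2 at 2.22 ± 0.212 were apart from the rest and from each other. CHIR99021 left this order as it was, with 210.8 ± 12.3 FPKM for Prmt1 and 1.696 ± 0.110 for Prmt2 at its ends. Prmt1 alone held 57.3% to 62.8% of the summed FPKM of the 7 enzyme genes in DMSO and 55.97% to 57.3% in CHIR99021.

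The type II enzyme gene Prmt5 lies on chromosome 14 (mm10, 54507182 to 54517470). It had 32.95, 36.1 and 36.6 FPKM in DMSO replicates 1, 2 and 3, and 63.4, 71.3 and 67.04 in CHIR99021 replicates 1, 2 and 3. Every CHIR99021 library was far above every DMSO library, and the confidence limits that Cufflinks gives for each library did not overlap between the groups either. For every other gene of the set, Prmt1 and Prmt7 included, these limits did overlap between the groups. The log2 change of Prmt5 was 0.91 ± 0.08 (SE, 95% interval 0.72 to 1.11), with an adjusted p of 0.000589 from limma's test over all tested genes. Prmt5 passed in each of the 14 alternatives run, with an adjusted p of 0.000139 to 0.00608 and a log2 change of 0.84 to 0.97. Prmt5 was 1.92, 1.98 and 1.83 times higher within replicate numbers 1, 2 and 3. Of 10096 tested genes, 153 (1.52%) had a larger log2 rise.

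Wdr77 encodes MEP50, the WD-repeat protein that binds PRMT5 and presents substrates to it (chromosome 3, 105959498 to 105969760). It had 16.2, 23.1 and 21.2 FPKM in the DMSO replicates and 24.6, 30.2 and 29.9 in the CHIR99021 replicates. The lowest CHIR99021 library lay just above the highest DMSO library. The log2 change was 0.48 ± 0.15 (SE, 95% interval 0.14 to 0.82) and did not pass after adjustment (adjusted p = 0.0549, limma), though it did with the replicate block (0.00224). It also passed without DMSO replicate 2 (adjusted p = 0.0410), but not without any other single library (0.0532 to 0.178). Wdr77 shares 751 bases of its span with Atp5f1, which runs the other way in GENCODE M21 and had 186.8 and 235.6 FPKM in DMSO and CHIR99021. The library kit keeps the strand, but how strand was set in the counting is unstated, so the Wdr77 level is less certain than that of Prmt5, whose span overlaps no other entry.

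The estimated rise of Prmt5 was larger than that of Wdr77, but their 95% intervals overlapped (0.72 to 1.11 and 0.14 to 0.82). The ratio of Prmt5 to Wdr77 FPKM was 2.04, 1.57 and 1.73 in the DMSO replicates and 2.58, 2.36 and 2.24 in the CHIR99021 replicates. The groups did not overlap (1.78 ± 0.240 and 2.39 ± 0.171), and an exact two-sided permutation test gave p = 0.1, the smallest that 3 libraries against 3 allow. The other PRMT5 partners on the list were Clns1a (pICln, which brings Sm proteins to the enzyme), Riok1 (which brings nucleolin) and Coprs (which directs it to nucleosomes). None of the 3 passed the test. Clns1a had 39.3 ± 4.84 and 42.3 ± 5.09 FPKM in DMSO and CHIR99021, and the 95% interval of its log2 change ran from -0.18 to 0.39. Riok1 had 13.3 ± 1.09 and 14.2 ± 0.738 FPKM (interval -0.14 to 0.32). Coprs had 2.29 ± 0.351 and 3.00 ± 0.786 FPKM (interval -0.15 to 0.69). Each of these intervals has its upper bound under the lower bound of the Prmt5 interval, 0.72, but the differences between genes were not tested. Adding 1 to FPKM before taking log2 also understates the change of a low gene such as Coprs. Its log2 change was 0.27 so, but 0.36 with 0.1 added instead.

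Among the type I genes, Prmt1 (chromosome 7, 44976755 to 44986420), which makes most of the asymmetric dimethylarginine of mammalian cells, rose. It had 153.5, 155.6 and 187.7 FPKM in DMSO and 197.5, 221.7 and 213.2 in CHIR99021. DMSO replicate 3 lay closest to the CHIR99021 libraries, and the groups did not overlap. The log2 change was 0.35 ± 0.10 (SE, 95% interval 0.11 to 0.59, adjusted p = 0.0465, limma; 0.00806 with the block). This call was at the edge of the threshold: it was lost without DMSO replicate 1 (adjusted p = 0.127) or 2 (0.0976) and without CHIR99021 replicate 1 (0.0667), 2 (0.132) or 3 (0.148), with no limit on level (0.0763) and with no variance trend (0.0770).

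Carm1, also called PRMT4, methylates histone H3 and transcriptional coactivators (chromosome 9, 21546894 to 21589465). It had 19.4, 26.5 and 27.0 FPKM in DMSO and 28.7, 38.1 and 35.7 in CHIR99021. DMSO replicates 2 and 3 lay just below CHIR99021 replicate 1, while within each replicate number CHIR99021 was 1.48, 1.44 and 1.32 times higher. The log2 change of Carm1 was 0.48 ± 0.16 (SE, 95% interval 0.12 to 0.84), with adjusted p = 0.0654 in limma's test and 0.00164 with the replicate block. It also passed without CHIR99021 replicate 1 (adjusted p = 0.0479), but not without any other single library (0.0753 to 0.194). It shares 784 bases with Yipf2 on the other strand, which had 21.8 and 24.7 FPKM.

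Prmt3, a cytosolic enzyme whose main substrate is the ribosomal protein RPS2, lies on the same chromosome as Prmt1 (49778358 to 49858265). Its DMSO libraries had 17.5, 22.6 and 19.04 FPKM and its CHIR99021 libraries 23.96, 26.5 and 24.9. The groups did not overlap, though DMSO replicate 2 was close to CHIR99021 replicate 1. The log2 change was 0.34 ± 0.11 (SE, 95% interval 0.08 to 0.60), with adjusted p = 0.0662, or 0.00947 with the replicate block and 0.0254 without DMSO replicate 2 (limma). Prmt3 did not pass without any other single library (adjusted p from 0.105 to 0.172).

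The remaining type I genes, Prmt6 and Prmt2, did not pass the test. Prmt6, a nuclear enzyme that methylates histone H3 at arginine 2 (chromosome 3, 110246110 to 110250998), had 10.6, 12.5 and 8.11 FPKM in DMSO and 8.66, 10.4 and 9.54 in CHIR99021. The CHIR99021 libraries lay within the range of the DMSO libraries. Its log2 change was -0.10 (95% interval -0.46 to 0.27, adjusted p = 0.716), and its sign turned without DMSO replicate 2 (0.03). Prmt2, whose product has an SH3 domain and acts as a coactivator of nuclear receptors (chromosome 10, 76207222 to 76237865), had 2.46, 2.14 and 2.07 FPKM in DMSO and 1.68, 1.81 and 1.59 in CHIR99021. All CHIR99021 libraries were lower, by less than 1 FPKM, and the Cufflinks limits of a single library were 33.03% to 44.5% of its value. Its log2 change of -0.26 (95% interval -0.59 to 0.08) did not pass (adjusted p = 0.244, or 0.123 with the block).

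The type III gene Prmt7 (chromosome 8, 106211054 to 106251694) rose. It had 15.4, 15.9 and 18.5 FPKM in DMSO and 20.9, 26.3 and 26.2 in CHIR99021. Its groups did not overlap, and CHIR99021 replicate 1 was lower than the other CHIR99021 libraries. The log2 change was 0.53 ± 0.12 (SE, 95% interval 0.25 to 0.81, adjusted p = 0.0203, limma), and 569 tested genes (5.64%) had a larger rise. The call was lost without DMSO replicate 1 (adjusted p = 0.0590) or 2 (0.0518) and without CHIR99021 replicate 2 (0.0702) or 3 (0.0902).

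**Figure D2:**
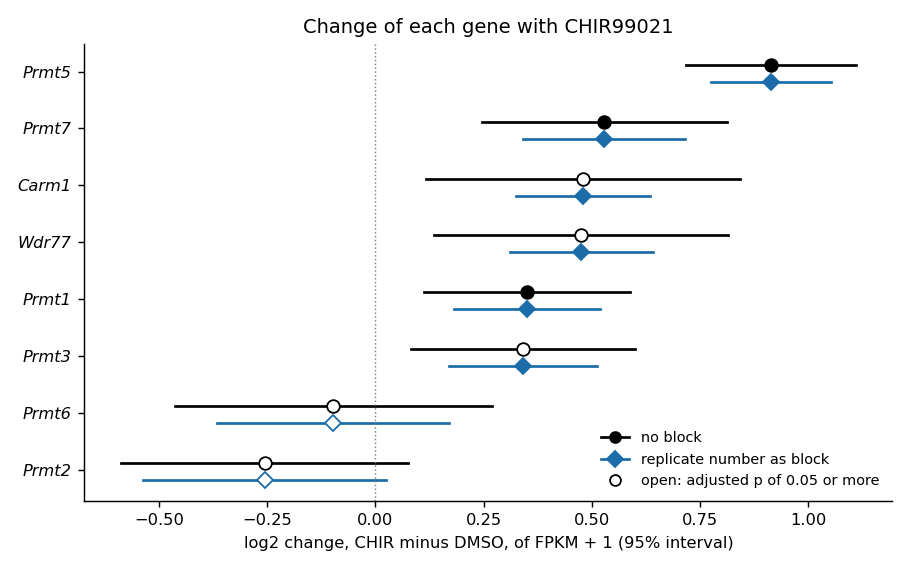
Log2 change of FPKM + 1, CHIR99021 minus DMSO, with its 95% interval (horizontal axis) for the 8 genes, without a block (black circles) and with the replicate number as a block (blue diamonds). Filled symbols passed the adjusted threshold of 0.05: 3 genes without the block and 6 with it, while Prmt6 and Prmt2 passed in neither.

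The groups did not overlap for 7 of the 8 genes, 6 with CHIR99021 above DMSO and 1 (Prmt2) below, where 17.0% and 23.1% of all tested genes did so. The log2 change was above 0 for 6 of 8, beside 45.2% of all tested genes. Groups that do not overlap must also differ the same way within every replicate number. For the 7 genes without overlap, the direction within numbers is thus no separate evidence. Summed by product, the 5 type I genes had 203.4, 219.4 and 243.9 FPKM in DMSO and 260.5, 298.6 and 284.9 in CHIR99021. The share of Prmt5 in the summed FPKM of all 7 enzyme genes was 12.2% to 13.3% in DMSO and 17.7% to 18.4% in CHIR99021. That of the type I genes was 80.8% to 81.6% and 75.4% to 75.5%. The Prmt7 share was 5.85% to 6.19% and 6.06% to 6.92%, which overlap. These are shares of transcripts per length, not of enzyme or activity.

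Of the other family members, Prmt8, an enzyme mainly of brain, was listed at 0 in all 6 libraries. Prmt9, listed under its older symbol Prmt10, is the other known source of symmetric dimethylarginine, on a splicing factor. It had 4.19, 4.15 and 4.55 FPKM in DMSO and 4.48, 6.02 and 4.66 in CHIR99021, and only CHIR99021 replicate 2 stood out. Its log2 change of 0.18 (95% interval -0.14 to 0.51) did not pass (adjusted p = 0.391, limma).

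Promoter windows from RefSeq (GRCm38.p6, 250 bases before to 50 after the start of transcription) were found for 7 of the 8 genes, all but Carm1, and are shown for those that lay higher with CHIR99021 and held an E-box or several CCAAT boxes. The E-box CACGTG, the core bound by MYC and other basic helix-loop-helix factors, was in the windows of 3 of the 7 genes, beside 7.15% of 32851 windows in the table. Each of the first 3 sequences below is 30 bases on the strand of the gene, with the E-box in capitals. It begins 181 bases before the start for Prmt1 (chr7:44986584-44986613, minus strand), 13 before for Prmt3 (chr7:49778333-49778362, plus strand) and 9 after for Wdr77 (chr3:105959495-105959524, plus strand).
Prmt1: acccaatcgtcaCACGTGctgggtgagaca
Prmt3: gccccctacgccCACGTGacccggaagcgc
Wdr77: gcagaggtacacCACGTGtgcggtccctcc
The Prmt5 window held no E-box but 4 copies of CCAAT, which reads ATTGG where it lies on the opposite strand. Of all windows, 1.06% had 4 or more and 37.4% had at least 1. The cutoff of 4 is the count of Prmt5 itself, so the 1.06% is a description with no test. One copy in each orientation is shown in capitals, 103 bases before the start (chr14:54517556-54517585, minus strand) and 46 before it (chr14:54517499-54517528, minus strand).
Prmt5 at 103: tgctgagcgacaCCAATgagagtctgtcat
Prmt5 at 46: tgagaattgcggATTGGtgggagcagcggc
Between these lies another copy, which overlaps the first window, at 87 bases before the start. CCAAT was also in the windows of Prmt1 (3 copies), Prmt2 (1) and Prmt3 (1). Searched on both strands as well, the TCF/LEF core CTTTGAT, bound by the partners of beta-catenin, was in 0 of 7 windows (3.73% of all), and a palindromic NRF1 motif in 0 (0.971%). CCGGAAG, an ETS motif, was in 2 (Prmt2 and Prmt3, 8.86% of all), in Prmt3 beside the E-box and not overlapping it, and the GC box GGGCGG in 5 (35.7%). Such matches describe letters in these windows and say nothing of binding in these cells.

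Beyond the enzymes, 50 genes of the methylarginine pathway were gathered in 9 lists, and 47 were tested. Of these, 9 rose and 4 fell, where 8.13% of all tested genes rose and 13.3% fell, and 16 rose and 7 fell with the replicate block, where the shares were 18.4% and 24.4%.

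**Figure D3:**
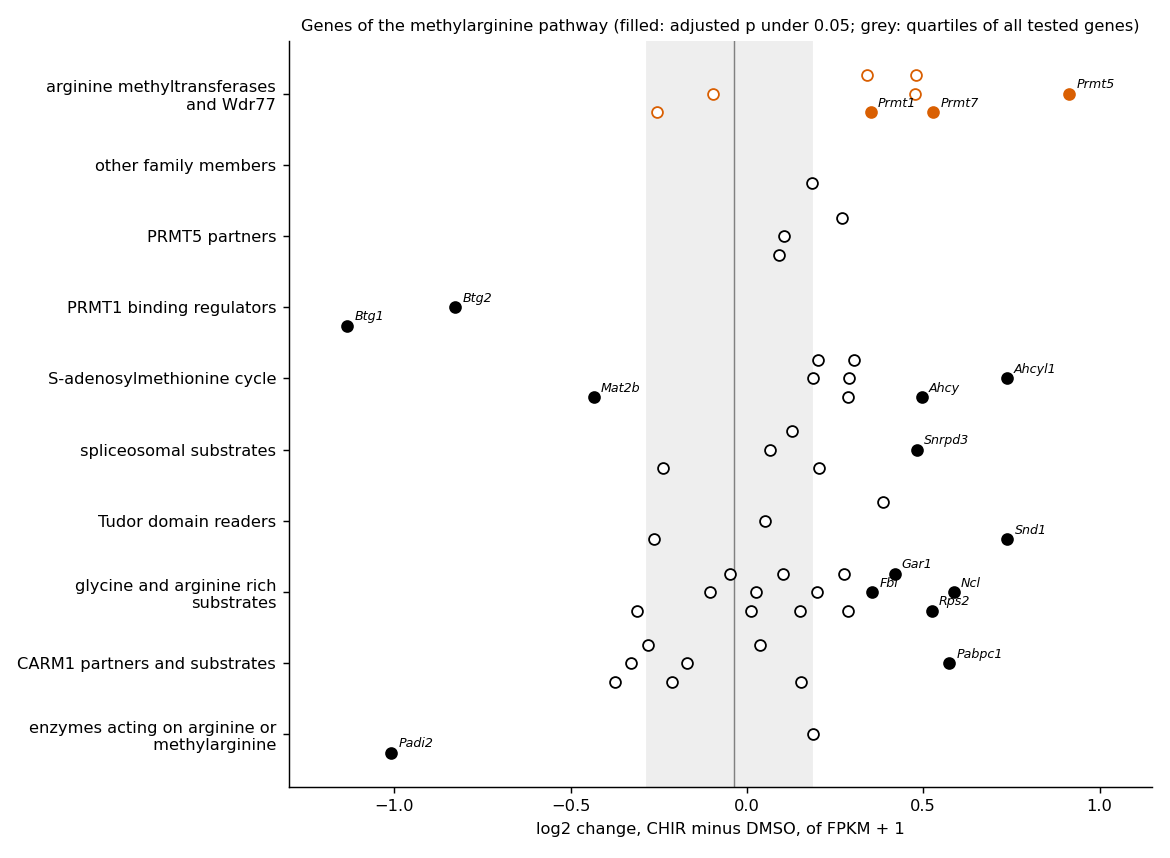
Log2 change of FPKM + 1, CHIR99021 minus DMSO (horizontal axis), for the tested genes of the family and of 9 lists of related genes (rows), filled and named where the adjusted p was under 0.05, with small vertical offsets for legibility only. The grey band spans the middle quartiles of all 10096 tested genes and the line is their median, -0.04. Btg1, Btg2 and Padi2 lie at the left, and Prmt5 at the right with Ahcyl1 and Snd1.

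Btg1 and Btg2, antiproliferative proteins that bind PRMT1 and modulate its activity, both fell, beside 13.3% of all tested genes. Btg1 had 120.6, 76.99 and 94.1 FPKM in DMSO and 50.4, 40.7 and 38.8 in CHIR99021, and Btg2 had 46.3, 33.8 and 47.1 against 28.3, 19.1 and 23.1. In both genes every CHIR99021 library lay under every DMSO library. Btg1 was 2.24-fold lower (log2 change -1.13 ± 0.17 SE, adjusted p = 0.00388, limma) and Btg2 1.81-fold lower (-0.83 ± 0.17 SE, adjusted p = 0.0141). Both calls held with the block, where 24.4% of all tested genes fell. The Btg2 call was lost without DMSO replicate 3 (adjusted p = 0.0576) or CHIR99021 replicate 3 (0.0594). Prmt1 thus rose while both Btg genes fell, but the Prmt1 call was at the edge of the threshold (adjusted p = 0.0465, limma).

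**Figure D4:**
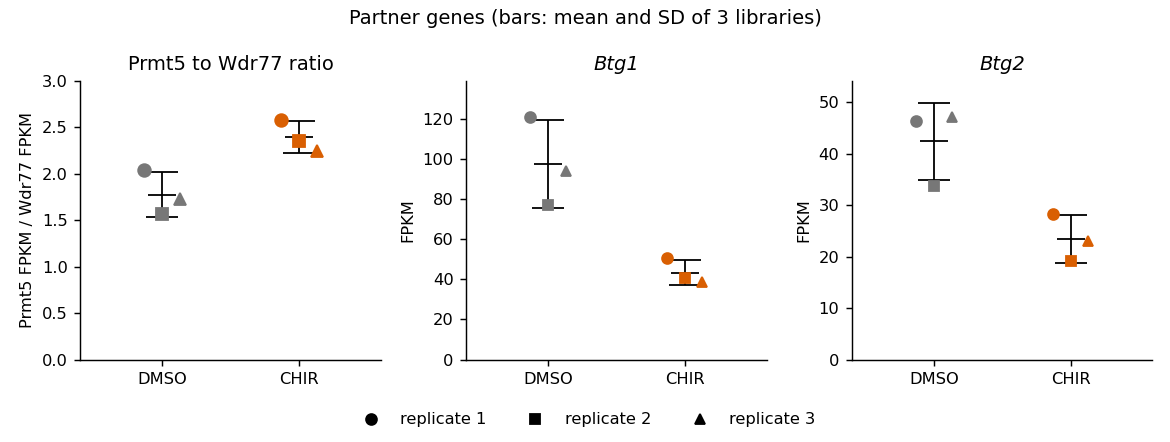
Left, ratio of Prmt5 to Wdr77 FPKM in each library; middle and right, FPKM of Btg1 and Btg2, all from 0, with symbols for the replicate number and bars for the mean and SD of 3 libraries. The ratio is 1.57 to 2.04 in DMSO and 2.24 to 2.58 in CHIR99021 (CHIR), and both Btg genes are lower in all CHIR99021 libraries.

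The S-adenosylmethionine cycle supplies the methyl donor and clears its product S-adenosylhomocysteine, which inhibits the methyltransferases. Of 8 tested genes of the cycle, 2 rose and 1 fell (8.13% and 13.3% of all tested genes), or 5 and 1 with the block (18.4% and 24.4%), with a median log2 change of 0.29 beside -0.04 over all genes. Ahcy, the hydrolase of S-adenosylhomocysteine, had 126.5, 127.8 and 146.1 FPKM in DMSO and 173.6, 190.0 and 202.0 in CHIR99021 (1.41-fold, adjusted p = 0.00993, limma). That call was lost without CHIR99021 replicate 3 (adjusted p = 0.0513). Ahcyl1, which encodes a protein related to that hydrolase with roles in inositol trisphosphate signalling, rose from 26.1 ± 2.96 to 43.98 ± 2.31 FPKM (adjusted p = 0.00269). Mat2b, the regulatory subunit of S-adenosylmethionine synthetase, fell from 53.6 ± 2.86 to 39.4 ± 0.907 FPKM (adjusted p = 0.00766). The catalytic subunit gene Mat2a did not pass on FPKM as deposited without the block: it had 79.5, 90.99 and 94.4 FPKM in DMSO and 103.2, 112.4 and 108.0 in CHIR99021 (adjusted p = 0.0570). It passed when paired (0.00814) and with upper-quartile (0.0263) or quantile (0.0359) scaling. The methionine synthase genes Mtr and Mtrr passed with the block only (adjusted p = 0.0291 and 0.0412), and the liver gene Mat1a was listed at 0 in all libraries.

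Among substrates of PRMT5 in the spliceosome, 1 of 5 tested genes rose and 0 fell, beside 8.13% and 13.3% of all tested genes (median log2 change 0.13). Snrpd3, which encodes the Sm protein SmD3, had 159.4, 176.5 and 183.6 FPKM in DMSO and 216.1, 245.9 and 266.4 in CHIR99021 (1.40-fold, adjusted p = 0.0155, limma). All its CHIR99021 libraries were above the DMSO libraries, and the call was lost without CHIR99021 replicate 2 (adjusted p = 0.0521) or 3 (0.0706). The other Sm protein genes differed less: Snrpb had 218.8 ± 24.1 and 238.2 ± 14.4 FPKM and Snrpd1 95.5 ± 3.47 and 99.9 ± 0.626, and neither passed. Lsm4 was lower in every CHIR99021 library than in every DMSO library (126.8 ± 13.3 FPKM in DMSO, 107.0 ± 3.78 in CHIR99021). It did not pass (adjusted p = 0.116, limma), but did without DMSO replicate 2 (0.0381), though not without any other single library (0.164 to 0.295). Tudor domain proteins bind methylated arginine, and 1 of 4 tested readers rose and 0 fell, beside the same 8.13% and 13.3% (median 0.22). Snd1, a reader of symmetric dimethylarginine, had 54.1, 56.3 and 64.02 FPKM in DMSO and 94.3, 92.96 and 105.5 in CHIR99021 (1.68-fold, adjusted p = 0.00207), with the groups well apart. With the block, 2 of 4 readers rose and 1 fell, beside 18.4% and 24.4% of all tested genes. The survival motor neuron gene Smn1 was then also higher (23.5 ± 4.66 and 30.7 ± 3.91 FPKM, adjusted p = 0.1301 without and 0.00609 with pairing). Smndc1 was lower (37.04 ± 3.79 and 30.7 ± 3.76, adjusted p = 0.148 and 0.0158).

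Proteins with glycine and arginine rich stretches are the classical substrates of PRMT1. Of 14 tested genes for such proteins and for RPS2, the PRMT3 substrate, 4 rose and 0 fell (8.13% and 13.3% of all tested genes), or 7 and 1 with the block (18.4% and 24.4%), with a median log2 change of 0.17. The genes that rose included nucleolar proteins: Ncl, nucleolin, had 125.8, 159.2 and 146.9 FPKM in DMSO and 186.0, 236.8 and 227.8 in CHIR99021 (1.51-fold, adjusted p = 0.0155). Fbl, fibrillarin, went from 223.1 ± 19.1 to 285.5 ± 20.95 FPKM (adjusted p = 0.0378) and Gar1 from 29.99 ± 2.75 to 40.5 ± 5.14 (adjusted p = 0.0404). Rps2 went from 3613 ± 321 to 5201 ± 562 FPKM (adjusted p = 0.0382), with the caution that ribosomal protein genes have many near-identical copies. The abundant Hnrnpa1 and Hnrnpa2b1 did not pass, with 170.8 ± 6.76 and 173.9 ± 9.43 FPKM and 523.5 ± 38.9 and 528.4 ± 56.7 FPKM.

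Single libraries decided several of these calls. That of Ncl was lost without CHIR99021 replicate 2 (adjusted p = 0.0547) or 3 (0.0728). Those of Fbl and Gar1 were lost without DMSO replicate 1 (adjusted p = 0.109 and 0.109) and without CHIR99021 replicate 2 (0.114 and 0.122) or 3 (0.140 and 0.142). Fbl was also lost without DMSO replicate 2 (0.0742) and Gar1 without DMSO replicate 3 (0.111). That of Rps2 was lost without any of DMSO replicates 1, 2 and 3 (adjusted p from 0.0651 to 0.0946) and without CHIR99021 replicate 1 (0.140) or 3 (0.162). With no limit on level, Fbl (adjusted p = 0.0621), Gar1 (0.0717) and Rps2 (0.162) did not pass, and with no variance trend Fbl (0.0646) and Gar1 (0.0639) did not.

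For the partners and substrates of CARM1, 1 of 8 tested genes rose and 0 fell, near the 8.13% of all tested genes that rose and beside the 13.3% that fell, with a median log2 change of -0.19. That gene, Pabpc1, encodes the cytoplasmic poly(A)-binding protein. It had 736.2, 636.4 and 660.2 FPKM in DMSO and 1002, 993.1 and 1027 in CHIR99021 (1.49-fold, adjusted p = 0.00564, limma), and the groups were well apart. The coactivator genes that work with CARM1 did not pass: Ncoa3 had 19.01 ± 2.97 and 14.4 ± 1.53 FPKM (adjusted p = 0.0918, but 0.0134 with the block and 0.0329 without DMSO replicate 1) and Ep300 11.8 ± 3.37 and 9.91 ± 2.46 (0.558).

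Arginine deiminases convert arginine in proteins to citrulline, which can no longer be methylated. Padi2, such an arginine deiminase, fell from 5.53, 3.97 and 4.59 FPKM in DMSO to 2.25, 1.58 and 1.65 in CHIR99021 (2.57-fold lower, adjusted p = 0.00563, limma). All its CHIR99021 libraries were under the DMSO libraries. Padi4 was listed at 0 in all libraries but CHIR99021 replicate 2 (0.0908 FPKM). Jmjd6, which has been described as an arginine demethylase, had 46.4 ± 7.14 and 53.05 ± 8.66 FPKM and did not pass (adjusted p = 0.412).

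The genes whose levels followed Prmt5 most closely over the 6 libraries were sought by the root mean square difference of log2(FPKM + 1) after each gene's own mean was subtracted. Of 10095 other tested genes, the nearest was Pabpc4, a poly(A)-binding protein gene, at a difference of 0.06 log2 units. It had 83.6, 88.8 and 82.03 FPKM in DMSO and 151.1, 175.2 and 162.9 in CHIR99021. Eef1e1 (a component of the aminoacyl-tRNA synthetase complex) and C1qbp (a mitochondrial matrix protein) followed at 0.07 and 0.07, then the peptidase gene Nln at 0.07 and E330020D12Rik at 0.07. Their log2 changes ran from 0.86 to 0.95, which their choice by likeness to Prmt5 over the same libraries fixes, so they are a description with no test. Of the family, Prmt7 came nearest, at position 294 and a difference of 0.21, and Wdr77 at position 507 and 0.25. Carm1 was at position 537, Prmt1 at 845 and Prmt3 at 924, while Prmt6 and Prmt2 were at 5678 and 6848.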

How the data were processed

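Messenger RNA of 6 libraries was sequenced, 3 treated with CHIR99021 and 3 with DMSO, after library preparation with a stranded TruSeq mRNA kit per the labels' protocols. The submitters' processing notes name Cufflinks 2.2.1, TopHat2 2.1.1, cutadapt 1.12 and mm10. Annotation, strand setting and handling of reads with several matches: not given in the sources used here. Each library has its own table, in which the authors deposited FPKM with confidence limits for every gene, per the file headers. The fragments behind an FPKM are not stated, so precision was read from the limits, whose half-width had a median of 12.5% to 15.4% of the value over tested genes, depending on the library. Summed FPKM ranged from 527290 to 617449. Starts of gene spans were converted to count from 1.

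Libraries were grouped by their titles. Genes whose mean reached 1 FPKM were tested on log2(FPKM + 1) with limma 3.58.1 in R 4.3.3 (eBayes with a variance trend), two-sided, with Benjamini-Hochberg adjustment over all 10096 tested genes and a threshold of 0.05. Log2 changes are on that scale, which understates low genes, intervals are unadjusted, and folds are ratios of mean FPKM. The fit was tested on simulated data. Titles number the libraries 1 to 3 in each group. Deviations from the group mean correlated at 0.535, 0.490 and 0.517 for the same number, and from -0.352 to -0.140 for different numbers. Such deviations cancel within a group, so the negative values follow from the positive ones and are no separate evidence. The numbers were taken to pair the libraries, and a fit with the number as a block was run beside the main one. The pairing was thus inferred from the same expression values that were fitted. The series states no pairing. Alternatives were pseudocounts of 0.1 and 5, no limit on level or a mean of 5 FPKM, upper-quartile and quantile scaling, no variance trend, the block, and leaving out each library.

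The genes and lists were chosen with earlier results of these data known. Some genes of the lists are not reported here, and list counts and sums leave them out. Named are the 8 genes, all genes of the lists of other family members, PRMT5 partners and PRMT1 binding regulators, up to 4 genes of each other list with the smallest adjusted p under 0.05, and the 5 genes likest to Prmt5. Named beyond this rule after their values were seen are Mat2a, Mat1a, Mtr, Mtrr, Snrpb, Snrpd1, Lsm4, Smn1 and Smndc1. Also named so are Hnrnpa1, Hnrnpa2b1, Ncoa3, Ep300, Padi4 and Jmjd6, and in the closing section Tdrd3, Ewsr1, Taf15 and Smarcc1. Prmt9, Mre11 and Adgre1 were found under older symbols. Promoter motifs were chosen after the expression results were known. Python 3.11.15 with pandas 2.3.3, numpy 2.4.6, scipy 1.17.1 and matplotlib 3.10.9 was used.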

Additional observations from a re-analysis of the deposited data

How the results depend on the processing

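The direction of 7 of the 8 genes was the same in all alternatives run, and Prmt6 turned only without DMSO replicate 2 (log2 change 0.0329, range without single libraries -0.25 to 0.0329). The replicate block, which pairs libraries by number, gave 1855 genes higher and 2466 lower, 6 of the family higher, and 16 list genes higher and 7 lower. It added Prmt3, Carm1 and Wdr77 (log2 changes 0.34, 0.48 and 0.48 in either fit) and ended no call among the 8. Upper-quartile scaling also called 6 of the family, with 0.39, 0.53 and 0.53 for these genes, and quantile scaling 6, with 0.39, 0.54 and 0.53, and 1232 genes higher in all. Wdr77 passed when genes with a mean under 5 FPKM were left out (0.48). Prmt1 did not pass without a limit on level or without the variance trend (0.35 in both). Leaving out 1 library gave 328 to 708 genes higher and 733 to 1275 lower, 1 to 3 of the family higher, and 3 to 8 list genes higher and 3 to 5 lower. Log2 changes then ran from 0.30 to 0.44 for Prmt1, 0.26 to 0.44 for Prmt3, 0.48 to 0.63 for Prmt7, 0.33 to 0.60 for Carm1 and 0.33 to 0.58 for Wdr77. The cause was not tested. The ratio of Prmt5 to Wdr77, with alternatives chosen after seeing the data, stayed at 0.35 to 0.54 (log2), and an exact sign-flip test over the 3 pairs of the replicate block gave p = 0.25, the smallest possible. Of the list genes, 6 reversed, none of them called. Without single libraries their log2 changes ran from -0.0118 to 0.11 for Tdrd3, -0.0072 to 0.0707 for Hnrnpa1, -0.05 to 0.10 for Hnrnpa2b1, -0.13 to 0.0136 for Ewsr1, -0.0448 to 0.22 for Taf15 and -0.0889 to 0.13 for Smarcc1. Ewsr1 also reversed with upper-quartile (0.0084) and quantile (0.0207) scaling.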
